A study of Mus musculus with 10 samples.

Results

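Genes that moved the same way in mesenchymal stem cells of bone marrow and of fat when the cells lacked both Rb1 and Trp53 were read from 8 arrays, 4 of null and 4 of wild-type cultures. For each gene the null effect was taken within each tissue as null minus wild type on a log2 scale, and the mean of the 2 within-tissue effects was its mean null effect. Of 21503 autosomal genes tested, 2011 were higher (9.35%) and 2067 were lower (9.61%) in null cells of both tissues, each at an adjusted p under 0.05 in both. Both sets together are called shared below. They were chosen by the 2 within-tissue contrasts, so their effects and p-values in those contrasts, and in the mean of the 2, are a description.

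The cultures were null mesenchymal stem cells from bone marrow (null BM-MSC) and from fat (null ASC, adipose-derived), and they were set against wild-type cells of either tissue (wild-type BM-MSC, wild-type ASC), with 2 independent cultures of each kind, all on the FVB background and at passages 2 to 5. By the culture protocol the null cells carried RbloxP/loxP and p53loxP/loxP alleles, spent 10 days in an osteogenic kit medium, and then received Ad-CMV-Cre, an adenovirus that expresses the Cre recombinase from the CMV promoter, before a return to growth medium. Their source labels name Rb-/-p53-/- mice instead, and the labels do not settle which holds. No osteogenic period is given for the wild-type cultures, so loss of the genes and osteogenic priming cannot be told apart in any difference below. The protocol mentions infection of every culture where it tells how the mutant cells were made, and does not state outright whether this includes the wild-type cells. Null BM-MSC were labelled tumorigenic and the other 3 groups non-tumorigenic, and the series asked how the stage of differentiation at which both genes are lost bears on sarcoma development.

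Rb1 encodes the retinoblastoma protein, which binds E2F transcription factors and holds back the genes of DNA synthesis until cyclin-dependent kinases release it. Trp53 encodes p53, which after damage or stress switches on genes that stop the cell cycle, repair DNA or kill the cell. In mesenchymal cells both proteins restrain growth, and both genes are often lost together in human osteosarcoma and other sarcomas.

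Signals are log2 values over each array's 75th percentile, so a level of 0 is a spot as bright as that percentile, and levels of different genes are not compared. Duplicate cultures correlated at r = 0.994 to 0.996 over the genes tested. On each of the 8 arrays 53.3% to 58.4% of probes were well above background. The 8 arrays lay on 1 slide with the null cultures in 1 line of positions and the wild-type cultures in the other, so position and genotype cannot be told apart. All 9 markers of mesenchymal stem cells were measured and well above background on all 8 arrays. Of 10 macrophage markers 9 were well above background on at least 1 array, and Tyrobp was on none. Of 7 endothelial markers 5 were tested, of 7 lymphoid and erythroid markers 3, of 6 skeletal muscle markers 1, and of 5 neural and Schwann markers 5.

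The probes of the targeted genes are given because every label rests on them. They are written 5′ to 3′ as the array carries them, the Rb1 probe from chr14:73595408-73595467 on the minus strand and the Trp53 probe from chr11:69404204-69404263 on the plus strand (mm9).
Rb1 probe: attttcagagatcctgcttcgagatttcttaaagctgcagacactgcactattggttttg
Trp53 probe: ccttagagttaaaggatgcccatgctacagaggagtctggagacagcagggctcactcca
Rb1 read 0.65 and 0.54 in null BM-MSC, against 1.90 and 1.92 in wild-type BM-MSC, and -1.91 and -1.97 in null ASC, against 1.31 and 1.31 in wild-type ASC. Trp53 read -0.89 and -1.11 in null BM-MSC, against 0.83 and 0.71 in wild-type BM-MSC, and -4.49 and -5.12 in null ASC, against 1.11 and 1.02 in wild-type ASC. Every null array was below every wild-type array for both genes, and the null BM-MSC arrays kept more of either signal than the null ASC arrays. Rb1 fell by 2.28 ± 0.04 in the mean null effect (adjusted p = 1.12e-06) and Trp53 by 3.82 ± 0.14 (adjusted p = 7.00e-06). The Trp53 probe was well above background on 1 of 2 null ASC arrays. Where either probe lies relative to the flanked exons was not determined here, so these levels do not measure how much DNA was removed.

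**Figure D1:**
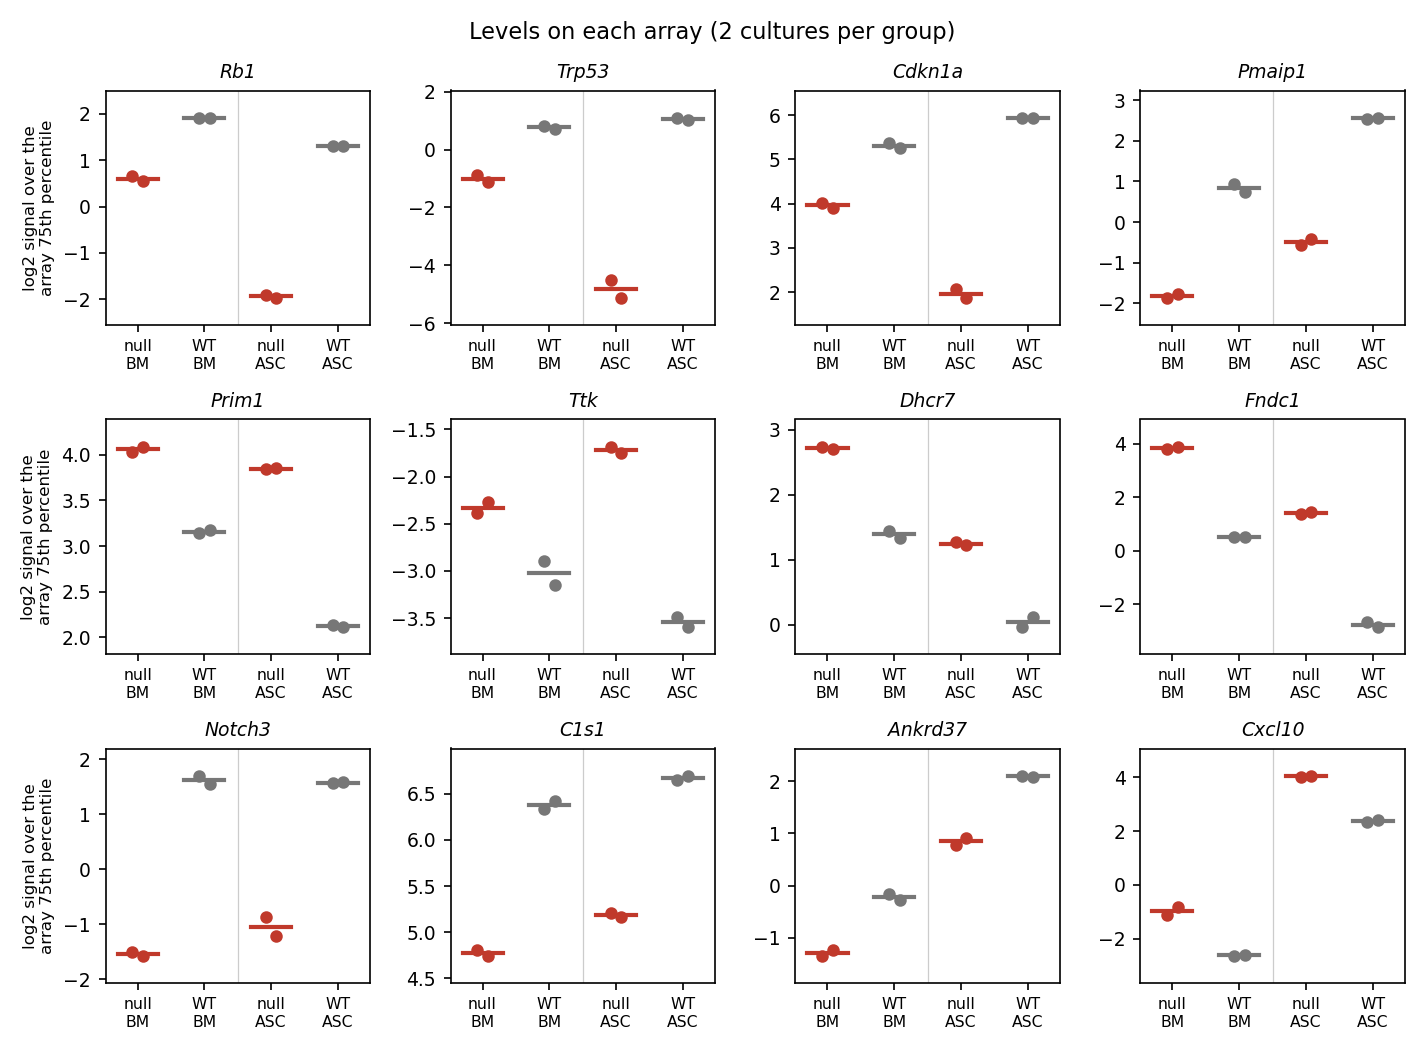
Log2 signal over the array's 75th percentile on each of the 8 arrays for 12 genes, with null cultures (red points) left of wild-type cultures (grey points) in each tissue, bars at the mean of 2 cultures, and an axis of its own for each gene. For Rb1, Trp53, Cdkn1a, Pmaip1, Notch3, C1s1 and Ankrd37 both null arrays lie below both wild-type arrays within each tissue, and for Prim1, Ttk, Dhcr7, Fndc1 and Cxcl10 both lie above.

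The mean null effect passed the threshold for 48.2% of the 22596 genes tested, 5278 upward (23.4%) and 5605 downward (24.8%), and the shares were 23.5% and 24.8% among autosomal genes. Within BM-MSC 4198 autosomal genes were higher (19.5%) and 4306 lower (20.0%), and within ASC 4360 were higher (20.3%) and 4594 lower (21.4%). The shared rises were 47.9% of the rises of BM-MSC and 46.1% of those of ASC, and the shared falls were 48.0% of the falls of BM-MSC and 45.0% of those of ASC. A further 1122 genes (5.22%) passed in opposite directions, 3304 (15.4%) in BM-MSC alone, 3754 (17.5%) in ASC alone and 9245 (43.0%) in neither. The 2 comparisons share no samples, but both use the same estimate of spread for a gene. A gene with a small spread is thus more readily called in both tissues, in either order of signs, and the 2 sets of calls are not independent. Across the 21503 genes their effects correlated at r = 0.28 (Spearman's rho = 0.32) and had the same sign in 62.6%, as a description, since genes are not independent replicates.

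Most shared changes were small. The median mean null effect was 0.52 among the shared rises and -0.58 among the shared falls, against -0.01 over all autosomal genes tested, and 171 rises and 277 falls were at least 2-fold in both tissues. All 4 null arrays lay above all 4 wild-type arrays, with no regard to tissue, for 1151 of the 2011 rises, and below them for 1062 of the 2067 falls. Over all autosomal genes the shares were 7.95% above and 7.98% below, and both counts follow in part from how the genes were chosen. Both null arrays lay above both wild-type arrays within each tissue for 18.2% of autosomal genes and below them for 19.6%. All 2011 rises and all 2067 falls had that pattern, which the way they were chosen all but fixed. Few of these genes passed through a dim group alone, since 93.9% of the rises and 90.9% of the falls were well above background on all 10 arrays of the series. For 28 of the rises and 31 of the falls no array of either genotype was well above background in 1 of the tissues, so the call there compares dim spots.
The size of the effect could still differ between the tissues. A test of the difference of the 2 effects was past the threshold for 761 of the rises and 819 of the falls, and for 31.8% of all autosomal genes. The effect was larger in ASC for 59.3% of the rises and 52.1% of the falls. At the edge of the rule, and so chosen after their values were seen, Kansl1 (adjusted p in BM-MSC 0.04997) and Fbh1 (0.04994) were just inside, and Cdc7 and Oas1a (0.05005 for both) just outside.

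**Figure D2:**
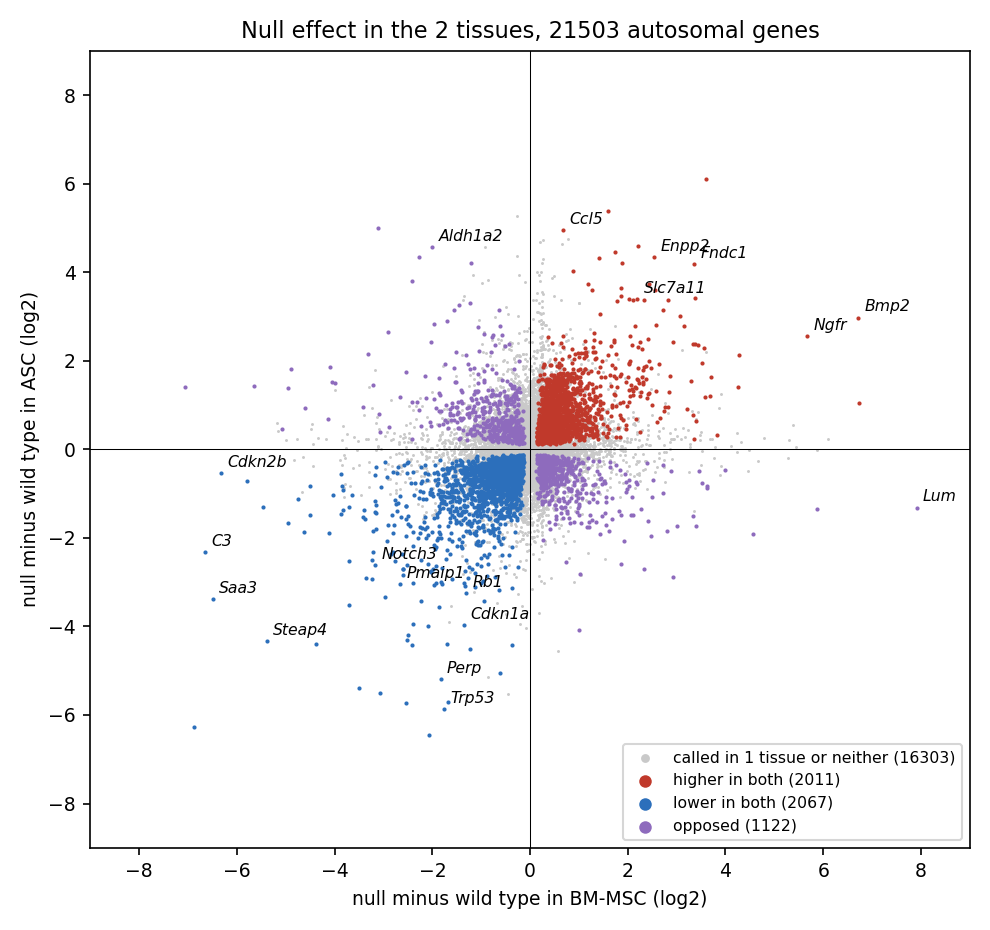
Null minus wild type in ASC (vertical axis, log2) against the same in BM-MSC (horizontal axis, log2) for 21503 autosomal genes, 1 point a gene, coloured by the 2 calls. The 2011 genes higher in both and the 2067 lower in both lie in opposite corners of the plot. Of these, Bmp2 and Ngfr lie far to the right, C3 and Saa3 far to the left, and Trp53 among the lowest.

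The 12 strongest shared rises and the 12 strongest shared falls were ranked by the smaller of the 2 effects, among genes whose probe cleared the background in all 4 groups on 1 array or both, which leaves out genes such as Bmp2 that were dim in 1 group. Fndc1, which led the rises, encodes a matrix protein with fibronectin type III domains. It read 3.81 and 3.89 in null BM-MSC, against 0.49 and 0.49 in wild-type BM-MSC, and 1.36 and 1.46 in null ASC, against -2.68 and -2.84 in wild-type ASC. Both null arrays were the higher within each tissue, though null ASC lay between wild-type BM-MSC and null BM-MSC, and it rose by 3.35 ± 0.11 in BM-MSC and 4.17 ± 0.11 in ASC (adjusted p of the mean effect = 1.56e-06). Enpp2 encodes autotaxin, the enzyme that makes lysophosphatidic acid. Its levels were 4.64 and 4.61 in null BM-MSC, against 2.01 and 2.18 in wild-type BM-MSC, and 4.42 and 4.60 in null ASC, against 0.09 and 0.24 in wild-type ASC. Null cultures of both tissues reached nearly the same Enpp2 level and the wild-type cultures did not, with a rise of 2.53 ± 0.09 in BM-MSC and 4.34 ± 0.09 in ASC. Ngfr, the low-affinity neurotrophin receptor, read 2.48 and 2.56 in null BM-MSC, against -3.45 and -2.85 in wild-type BM-MSC, and 6.30 and 6.29 in null ASC, against 3.83 and 3.65 in wild-type ASC. Wild-type ASC already held more Ngfr signal than null BM-MSC, yet the gene rose in both tissues, by 5.67 ± 0.18 in BM-MSC and 2.56 ± 0.18 in ASC.
The other 9 rises were Lgi2, a secreted leucine-rich repeat protein (mean null effect 3.09), Lypd6, a membrane-anchored protein of the Ly6 family (2.98), the angiopoietin-like protein Angptl1 (2.94), the glutaminyl cyclase Qpct (2.69), the synuclein-binding protein gene Sncaip (3.08), the microfibril protein Mfap4 (2.46), Oasl1, an interferon-inducible gene (2.87), the receptor phosphatase Ptprb (2.85) and the tetraspanin Tspan13 (2.85). The adjusted p of the mean effect was at most 0.00192 among the 12, which follows in part from how they were chosen. The difference between tissues did not pass for Lypd6, Angptl1, Qpct, Mfap4, Oasl1 and Ptprb. The probe was well above background on 1 of 2 wild-type BM-MSC arrays for Oasl1 and on 1 of 2 wild-type ASC arrays for Ptprb, so those sizes depend on dim signals. Scin, which encodes an actin-severing protein, was the named gene well above background on all 4 null arrays and on no wild-type array. It was at least 4.86-fold higher in BM-MSC and at least 5.5-fold higher in ASC, a description, since Scin was chosen by that pattern. In all, 3 of the 21503 autosomal genes tested showed it.

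Among the strongest shared falls was a known p53 target, Pmaip1, which encodes the death protein NOXA. It read -1.87 and -1.76 in null BM-MSC, against 0.94 and 0.74 in wild-type BM-MSC, and -0.57 and -0.42 in null ASC, against 2.53 and 2.58 in wild-type ASC. All 4 null arrays lay below all 4 wild-type arrays, and it fell by 2.65 ± 0.09 in BM-MSC and by 3.05 ± 0.09 in ASC (adjusted p of the mean effect = 1.56e-06). Notch3, a receptor of perivascular and smooth muscle cells, had -1.51 and -1.57 in null BM-MSC, against 1.71 and 1.56 in wild-type BM-MSC, and -0.87 and -1.22 in null ASC, against 1.57 and 1.58 in wild-type ASC. The 4 wild-type arrays were close together and the 4 null arrays far below, and Notch3 fell by 3.17 in BM-MSC and by 2.62 in ASC.
Serpina3f and Serpina3i belong to a cluster of protease inhibitor genes on chromosome 12 that multiplied in the mouse, and their mean null effects were -3.08 and -2.86. These paralogs are alike in sequence, so their probes may share signal. The others were Alkal1, a ligand of the ALK receptor (-3.61), the potassium channel Kcnj4 (-3.15), Tmem74b (-3.14), the sodium channel subunit Scn3b (-2.72), the glutathione transferase Gsta3 (-3.41), the carboxypeptidase Cpz (-2.64), Sytl1, a vesicle transport gene (-3.11) and Celf5, an RNA-binding protein gene (-3.35), all as log2 mean null effects. The highest adjusted p among the 12 was 0.00253, for Cpz, which again follows in part from how they were chosen. The Scn3b probe was well above background on 1 of 2 null BM-MSC arrays.
The reverse on and off pattern was well above background on all 4 wild-type arrays and on no null array. It was found for 46 of the 21503 autosomal genes tested, of which 24 had gene names. Steap4, a metalloreductase, was at least 9.71-fold lower in null BM-MSC and at least 6.54-fold lower in null ASC, and Selp, which encodes the adhesion protein P-selectin, at least 15.1-fold and 3.2-fold lower in the same order of tissues. For the membrane protein genes Tmc7, Ano3 and Sema4d and the transcription factor gene Ascl2 these bounds ran between 2.55-fold and 5.33-fold. These 6 were chosen by that pattern, so their falls are a description and no p-value is read for them.

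Genes of DNA replication rose together. Of 44 measured members 36 were higher in both tissues, 0 were lower in both and 1 passed in opposite directions. The median mean null effect was 0.93, against -0.01 over all genes tested. Of all 22596 genes tested, 2094 were higher in both, 2174 lower in both and 1180 opposed, the background for the counts of every list below. Prim1, the catalytic primase subunit that starts each new strand, read 4.03 and 4.09 in null BM-MSC, against 3.14 and 3.17 in wild-type BM-MSC, and 3.84 and 3.85 in null ASC, against 2.13 and 2.12 in wild-type ASC. The null arrays were above the wild-type arrays in either tissue, by 0.90 ± 0.04 in BM-MSC and 1.72 ± 0.04 in ASC (adjusted p of the mean effect = 1.74e-06). Mcm6, a subunit of the replicative helicase, read 6.34 and 6.38 in null BM-MSC, against 5.49 and 5.39 in wild-type BM-MSC, and 6.81 and 6.81 in null ASC, against 5.14 and 5.28 in wild-type ASC, and again all 4 null arrays were the higher. It rose by 1.26 ± 0.05 in the mean, its partner Mcm5 by 1.21 ± 0.06, and Cdt1, which loads the helicase onto origins, by 1.13 ± 0.03. Rrm1, the large subunit of ribonucleotide reductase, was the exception, with -0.31 ± 0.05 in BM-MSC and 0.31 ± 0.05 in ASC. Under array median scaling its signs stayed opposite, but 0 replication genes were called in opposite directions.
Mitotic genes followed. Of 33 measured members 26 were higher in both tissues and 0 lower, and all 33 were called higher in the mean null effect, with a median of 0.93. Ttk, a spindle checkpoint kinase, read -2.39 and -2.27 in null BM-MSC, against -2.89 and -3.15 in wild-type BM-MSC, and -1.68 and -1.75 in null ASC, against -3.48 and -3.59 in wild-type ASC. Both null arrays lay above both wild-type arrays in each tissue, by 0.69 ± 0.10 in BM-MSC and 1.82 ± 0.10 in ASC. The mean rise was 1.19 ± 0.07 for Top2a, the topoisomerase that untangles chromosomes, 1.20 ± 0.05 for Mybl2, a transcription factor of late cell cycle genes, and 1.07 ± 0.04 for Ccna2, which encodes cyclin A2.
Both lists moved more in fat cells. The median effect of the replication genes was 0.57 in BM-MSC and 1.22 in ASC, and that of the mitotic genes 0.38 in BM-MSC and 1.48 in ASC. The difference was past the threshold for 40 of 44 replication genes and 32 of 33 mitotic genes. By the labels all cultures were collected in exponential growth, and no measure of growth rate was analysed here. The mitotic count of 26 was 16 without null BM-MSC replicate 1, 17 without null BM-MSC replicate 2 and 15 without wild-type BM-MSC replicate 2. With array median scaling in place of the 75th percentile it was 17, with the median still at 0.88 or above in the scalings tried.
Of 11 measured E2F factors and pocket proteins 6 were higher in both tissues and 1 was lower. E2f8 and E2f7, repressors that are themselves E2F targets, rose by 1.58 ± 0.05 and 1.08 ± 0.06 in the mean null effect, the activator E2f2 by 1.01 ± 0.08, and Tfdp1, the partner of E2F proteins, by 0.68 ± 0.06. Rbl2, which encodes the pocket protein p130, fell by 0.55 ± 0.08 (adjusted p = 0.00136). Its shared fall was lost without null BM-MSC replicate 2 and under array median scaling.
Recombination and damage checkpoint genes were less uniform, with 7 of 25 higher and 1 lower in both tissues and a median of 0.66. Rad51ap1 and Rad54l, which act in homologous recombination, rose by 1.19 ± 0.05 and 1.17 ± 0.04, and the Fanconi anaemia gene Fanca by 0.99 ± 0.06. Fanca did not pass with the mean of all its probes. Atr, the kinase that senses stalled replication, fell by 0.19 ± 0.04, a small change that did not pass under array median scaling or with the mean of its probes (adjusted p = 0.098 and 0.289). Its shared call was lost when any 1 of the 8 arrays was left out.

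Promoters of replication and mitotic genes carry well-known motifs, and 4 are printed here, 1 for each of the replication, mitotic, sterol and p53 lists, chosen after their matches were counted. Each covers 250 bases before to 50 bases after a gene's start in RefSeq (GRCm38.p6), written 5′ to 3′ on the gene's strand, with the letters of the motif in capitals. Mcm6 lies at chr1:128359656-128359955 on the minus strand, with capitals at 3 E2F motifs, of which 2 overlap on opposite strands. Top2a lies at chr11:99024140-99024439 on the minus strand, with capitals at 4 CHR motifs (cell cycle genes homology region) and 6 CCAAT boxes. Hmgcs1, the sterol pathway's synthase of its first committed building block, lies at chr13:119690101-119690400 on the plus strand, with capitals at 4 CCAAT boxes. Ccng1 lies at chr11:40755237-40755536 on the minus strand, with capitals at 1 p53 decamer.
Mcm6: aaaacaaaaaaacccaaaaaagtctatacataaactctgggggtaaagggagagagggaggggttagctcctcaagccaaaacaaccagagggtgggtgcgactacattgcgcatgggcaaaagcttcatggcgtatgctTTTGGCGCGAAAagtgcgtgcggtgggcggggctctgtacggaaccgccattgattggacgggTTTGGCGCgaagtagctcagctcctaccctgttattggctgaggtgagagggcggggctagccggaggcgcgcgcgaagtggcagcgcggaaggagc
Top2a: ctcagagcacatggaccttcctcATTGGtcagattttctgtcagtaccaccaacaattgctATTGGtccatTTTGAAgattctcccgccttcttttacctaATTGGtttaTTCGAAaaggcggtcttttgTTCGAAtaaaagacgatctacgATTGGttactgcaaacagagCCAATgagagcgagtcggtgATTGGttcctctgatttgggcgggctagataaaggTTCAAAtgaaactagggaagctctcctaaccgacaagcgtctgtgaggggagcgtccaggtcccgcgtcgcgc
Hmgcs1: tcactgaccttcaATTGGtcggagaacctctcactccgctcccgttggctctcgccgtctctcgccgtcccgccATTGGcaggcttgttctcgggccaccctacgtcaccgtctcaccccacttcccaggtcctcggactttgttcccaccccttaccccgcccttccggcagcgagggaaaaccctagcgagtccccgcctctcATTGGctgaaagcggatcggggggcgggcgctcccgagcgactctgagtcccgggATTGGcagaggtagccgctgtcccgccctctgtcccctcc
Ccng1: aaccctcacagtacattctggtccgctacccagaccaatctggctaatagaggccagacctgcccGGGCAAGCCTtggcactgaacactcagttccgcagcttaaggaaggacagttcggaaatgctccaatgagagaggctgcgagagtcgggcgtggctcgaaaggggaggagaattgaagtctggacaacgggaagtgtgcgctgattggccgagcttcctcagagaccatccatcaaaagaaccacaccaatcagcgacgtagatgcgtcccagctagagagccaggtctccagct
The E2F motif was searched as TTTCCCGC, TTTCGCGC, TTTGCCGC or TTTGGCGC, the CHR as TTTGAA or TTCGAA, and the CCAAT box as CCAAT, on both strands. E2F and CHR motifs share no full match, and TTCGAA reads the same on both strands. An E2F motif stood in 13 of the 36 replication genes with a promoter in the table (36.1%) and in 1 of 28 mitotic genes (3.57%). It stood in 2.32% of all 27025 promoters. Of the 21503 autosomal genes tested 11877 had a promoter in the table, and 3.68% of these held the motif. The CHR stood in 20 of 28 mitotic promoters (71.4%) and in 7 of 36 replication promoters (19.4%). It stood in 19.4% of all promoters and in 14.2% of those 11877. The p53 decamer stood in 9 of 36 promoters of the p53 target lists, against 8.37% of all and 7.11% of the 11877. A CCAAT box stood in 20 of 28 mitotic (71.4%) and 21 of 36 replication promoters (58.3%), against 37.9% of all and 38.1% of the 11877. For the shared rises and falls as a whole, and for the sterol genes, fewer than 80% had a promoter in the table, so no share is read for them. Fewer than 80% of the autosomal genes tested had one too, so their shares are a reference for genes with a promoter alone. A match is a description of letters in 1 window, not of binding.

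Most p53 targets fell in both tissues. In the arrest and feedback list 9 of 14 members were lower in both tissues and 0 higher, with a median mean null effect of -1.55. In the death list 10 of 13 were lower and 0 higher, with a median of -1.01, and in the repair and metabolism list 12 of 17 were lower and 0 higher, with a median of -0.83. Over all genes tested 2174 of 22596 were lower in both.
Cdkn1a encodes p21, the inhibitor of cyclin-dependent kinases through which p53 stops the cell cycle. It read 4.02 and 3.91 in null BM-MSC, against 5.37 and 5.26 in wild-type BM-MSC, and 2.06 and 1.87 in null ASC, against 5.95 and 5.93 in wild-type ASC. All null arrays lay below all wild-type arrays, those of ASC the furthest, and it fell by 1.35 ± 0.08 in BM-MSC and by 3.97 ± 0.08 in ASC (adjusted p of the difference = 4.11e-05). Ccng1, which encodes cyclin G1 and whose promoter is printed above, read 3.18 and 3.09 in null BM-MSC, against 4.81 and 4.67 in wild-type BM-MSC, and 2.12 and 2.06 in null ASC, against 4.95 and 5.06 in wild-type ASC. It too was lower on every null array and fell by 2.26 in the mean. Psrc1, which encodes a microtubule-binding protein, fell by 2.38 ± 0.04, and the growth-restraining gene Btg2 by 2.35 ± 0.07. Of the members called higher in marrow, named after their values were seen except Plk2, the damage-response gene Gadd45a rose by 1.48 ± 0.07 in BM-MSC, the p53 phosphatase gene Ppm1d by 0.30 ± 0.06 and the kinase gene Plk2 by 0.56 ± 0.10. In ASC they had 0.09 ± 0.07, -0.04 ± 0.06 and -0.71 ± 0.10, of which the value of Plk2 alone passed. Gadd45a rose by 0.79 ± 0.05 in the mean null effect, and did not pass in the fit with 1 genotype effect over both tissues (adjusted p = 0.0846).
Perp, a desmosome protein with a part in p53-dependent death, read 1.25 and 1.26 in null BM-MSC, against 3.13 and 3.03 in wild-type BM-MSC, and -2.31 and -2.34 in null ASC, against 2.85 and 2.86 in wild-type ASC. Its null ASC arrays were far below all others, and the null BM-MSC arrays lay between these and the wild type, and it fell by 1.83 in BM-MSC and by 5.18 in ASC. Fas, the death receptor, had 0.39 and 0.41 in null BM-MSC, against 2.55 and 2.56 in wild-type BM-MSC, and 1.42 and 1.56 in null ASC, against 3.30 and 3.27 in wild-type ASC. It fell by 2.15 in BM-MSC and by 1.80 in ASC. Pidd1, an adaptor of caspase activation, fell by 1.65 in BM-MSC and by 1.63 in ASC. Dram1, a lysosomal protein of autophagy, passed in opposite directions, with -0.52 ± 0.07 in BM-MSC and 0.62 ± 0.07 in ASC.
Among the repair and metabolism targets, the xylulose reductase Dcxr fell by 2.34 ± 0.06 in the mean null effect, the thiamine transporter Slc19a2 by 1.92 ± 0.06, the translesion polymerase Polk by 1.41 ± 0.06 and Cpt1c, a brain-type carnitine palmitoyltransferase, by 1.10 ± 0.04 (adjusted p = 1.14e-05 at most). Members of this list passed in opposite directions for Fdxr, a mitochondrial ferredoxin reductase, with 0.80 ± 0.06 in BM-MSC and -0.34 ± 0.06 in ASC, and for the glutaminase Gls2, with -0.37 ± 0.07 in BM-MSC and 0.31 ± 0.07 in ASC. That count of 2 was 1 without null ASC replicate 2 or wild-type ASC replicate 2, and under array median scaling. Named after their values were seen, the stress-response gene Sesn1 rose by 0.50 ± 0.06 in BM-MSC and had 0.09 ± 0.06 in ASC, and Ddb2, of nucleotide excision repair, rose by 0.46 ± 0.08 in ASC and had -0.19 ± 0.08 in BM-MSC.

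Cyclins, kinases and inhibitors of G1 split. Of 13 measured members 4 were higher and 3 lower in both tissues and 2 were opposed, with a median of 0.03. The opposed count was 1 without null ASC replicate 1, wild-type BM-MSC replicate 2 or wild-type ASC replicate 2, and 0 under array median scaling. Ccnd2, which encodes cyclin D2, read 3.67 and 3.71 in null BM-MSC, against 5.29 and 5.18 in wild-type BM-MSC, and 4.67 and 4.64 in null ASC, against 6.14 and 6.22 in wild-type ASC. All null arrays were lower, and Ccnd2 fell by 1.55 in BM-MSC and by 1.52 in ASC, while Cdk2, the kinase of the step into S phase, rose by 0.73 ± 0.04. Ccnd1, which encodes cyclin D1, fell by 0.38 in BM-MSC and by 2.21 in ASC.
Cdkn2b encodes p15, an inhibitor of CDK4 and CDK6. It read -3.71 and -3.68 in null BM-MSC, against 2.63 and 2.62 in wild-type BM-MSC, and 2.38 and 2.35 in null ASC, against 2.89 and 2.92 in wild-type ASC. It fell by 6.32 ± 0.04 in BM-MSC, where the null arrays stood apart from all others, and by 0.54 ± 0.04 in ASC, and its mean describes neither tissue. Its mean effect did not pass in the fit with 1 genotype effect over both tissues (adjusted p = 0.0684). Cdkn1c, which encodes the inhibitor p57, rose by 2.60 ± 0.15 in BM-MSC and 0.62 ± 0.15 in ASC.
In the BCL2 family 3 of 11 measured members were higher and 1 lower in both tissues, against 9.35% and 9.61% of autosomal genes tested. In that list 1 was higher without null ASC replicate 2, without wild-type ASC replicate 2 or under array median scaling. The survival gene Bcl2l1 fell by 0.99 ± 0.04, and the death effectors or triggers Bok, Bmf and Bak1 rose by 0.70 ± 0.03, 0.67 ± 0.09 and 0.34 ± 0.05.

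Genes of cholesterol and fatty acid synthesis rose almost without exception. Of 20 measured members 19 were higher in both tissues, 0 were lower, and 1 was opposed, and all 20 were called higher in the mean null effect, with a median of 0.87. Dhcr7, which makes the last step to cholesterol, read 2.74 and 2.70 in null BM-MSC, against 1.44 and 1.34 in wild-type BM-MSC, and 1.27 and 1.22 in null ASC, against -0.03 and 0.11 in wild-type ASC. Both null arrays lay above both wild-type arrays in each tissue, by 1.33 ± 0.07 in BM-MSC and 1.21 ± 0.07 in ASC (adjusted p of the difference = 0.381). Fdps, the synthase of farnesyl diphosphate, read 6.69 and 6.72 in null BM-MSC, against 5.69 and 5.60 in wild-type BM-MSC, and 5.80 and 5.67 in null ASC, against 4.41 and 4.39 in wild-type ASC. It rose by 1.06 ± 0.06 in BM-MSC and 1.34 ± 0.06 in ASC, and Idi1, the isomerase that feeds it, by 0.87 ± 0.06 and 1.37 ± 0.06.
The desaturase Scd1 rose by 0.98 ± 0.07 in BM-MSC and 1.78 ± 0.07 in ASC, and Fasn, the fatty acid synthase, by 1.34 ± 0.07 and 0.67 ± 0.07. Insig1, which keeps the sterol sensor in the endoplasmic reticulum, was opposed by a small margin, with -0.18 ± 0.05 in BM-MSC and 0.68 ± 0.05 in ASC, and its fall in BM-MSC kept its sign but passed under none of 4 other scalings or value sets, nor when any 1 of the 4 BM-MSC arrays was left out. Unlike the cell cycle lists, the medians of the tissues were alike, 0.85 in BM-MSC and 0.87 in ASC, and the difference passed for 10 of 20 members.

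**Figure D3:**
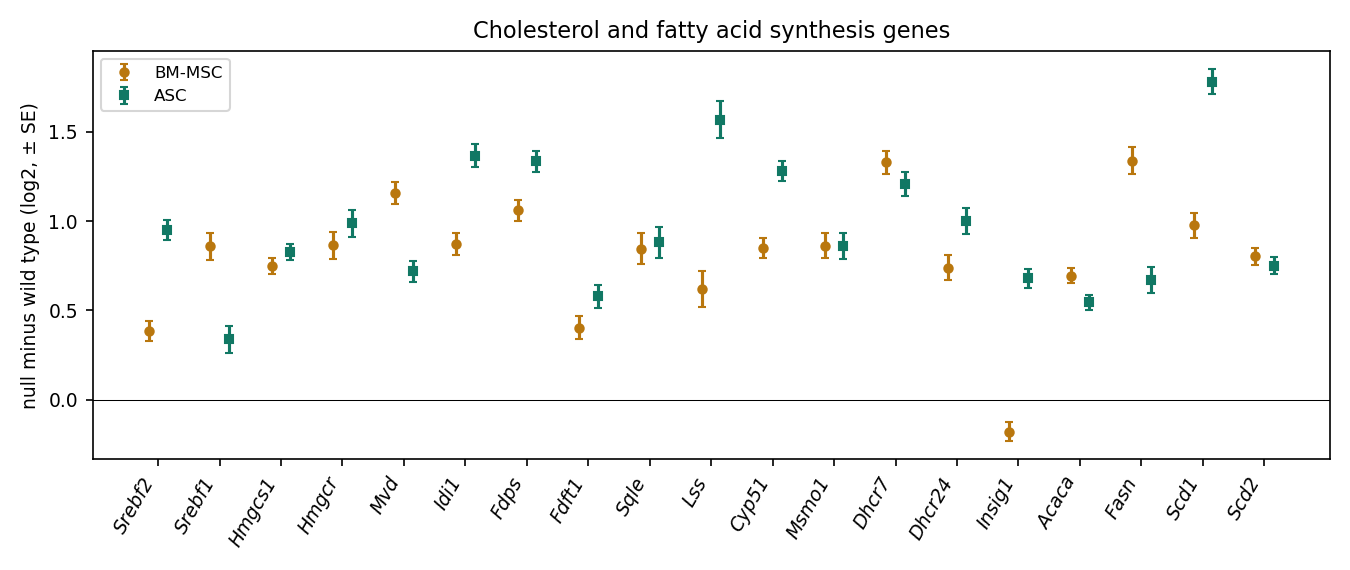
Null minus wild type ± SE (log2) in BM-MSC (circles) and in ASC (squares) for 19 of the 20 cholesterol and fatty acid synthesis genes, from 2 arrays against 2 in each tissue. All points lie above 0 except Insig1 in BM-MSC.

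Hypoxia and glycolysis genes fell. Of 20 measured members 12 were lower in both tissues, 1 was higher and 1 was opposed (2 without null ASC replicate 1), with a median of -0.52. Ankrd37, a target of the hypoxia-inducible factor, read -1.34 and -1.24 in null BM-MSC, against -0.17 and -0.27 in wild-type BM-MSC, and 0.78 and 0.92 in null ASC, against 2.11 and 2.09 in wild-type ASC. The null arrays were lower in both tissues, and Ankrd37 fell by 1.07 in BM-MSC and by 1.25 in ASC. The mitophagy receptor Bnip3 fell by 1.45 ± 0.05 and the pyruvate dehydrogenase kinase Pdk1 by 1.25 ± 0.05. Egln3, a prolyl hydroxylase that the factor induces, was not well above background in null BM-MSC and at least 9.52-fold lower there, and it fell by 1.31 ± 0.14 in ASC. Of the genes that set glycolytic flux, Pfkfb4 rose by 0.47 ± 0.05 and Pfkfb3 had -0.78 ± 0.08 in BM-MSC and 0.43 ± 0.08 in ASC. Oxygen and cell density in the cultures are not in the labels, and their part in the result was not tested.

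Interferon genes rose in part. Of 26 measured members 6 were higher in both tissues, 0 lower and 3 opposed, although 20 were called higher in the mean null effect, with a median of 0.55. Cxcl10, a chemokine that interferon induces, read -1.13 and -0.80 in null BM-MSC, against -2.63 and -2.59 in wild-type BM-MSC, and 4.02 and 4.07 in null ASC, against 2.34 and 2.40 in wild-type ASC. Its rise was 1.64 ± 0.10 in BM-MSC and 1.67 ± 0.10 in ASC, while its level differed more between tissues than between genotypes. The antiviral gene Mx2 rose by 0.94 ± 0.16, the RNA sensor Ifih1 by 0.64 ± 0.07 and Stat2, a transcription factor of the response, by 0.39 ± 0.05. Ifih1 did not pass with the mean of all its probes (adjusted p = 0.11). Between 4 and 13 members were higher in both across 4 other scalings or value sets, and 14 were without null BM-MSC replicate 1. The opposed count of 3 was 1 without either null ASC array or either wild-type BM-MSC array, and 0 under array median scaling. By the culture protocol the null cells had received an adenovirus, and the part of a virus in these levels was not tested.
Antigen presentation by MHC class I followed, with 5 of 10 members higher in both tissues and 1 opposed. That opposed call was lost when any array other than wild-type ASC replicate 1 was left out, and under array median scaling. H2-K1, a class I heavy chain that shares sequence with its paralogs, read 5.81 and 5.81 in null BM-MSC, against 5.11 and 5.07 in wild-type BM-MSC, and 6.91 and 6.95 in null ASC, against 6.30 and 6.32 in wild-type ASC. It rose by 0.67 ± 0.03 in the mean, and the peptide-loading gene Tapbp by 0.43 ± 0.04. The immunoproteasome gene Psmb9 rose by 0.72 ± 0.05, but its probes disagreed, and their mean gave 0.15 (adjusted p = 0.631).

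Complement and acute phase genes fell. Of 11 measured members 7 were lower in both tissues and 1 was higher, with a median of -1.52. C1s1, a protease of the first complement component, read 4.80 and 4.74 in null BM-MSC, against 6.33 and 6.42 in wild-type BM-MSC, and 5.20 and 5.17 in null ASC, against 6.65 and 6.70 in wild-type ASC. All null arrays were the lower, and C1s1 fell by 1.60 in BM-MSC and by 1.49 in ASC. C3, the component on which all complement routes meet, read -1.61 and -1.81 in null BM-MSC, against 4.97 and 4.91 in wild-type BM-MSC, and 5.64 and 5.87 in null ASC, against 8.12 and 8.02 in wild-type ASC. The null BM-MSC arrays were far below all others, and C3 fell by 6.65 in BM-MSC and by 2.32 in ASC (adjusted p of the difference = 2.10e-05). Haptoglobin (Hp) fell by 2.54 ± 0.11. The serum amyloid gene Saa3 was not well above background in null BM-MSC, at least 25.6-fold lower there, and fell by 3.39 ± 0.16 in ASC.
Inflammatory cytokines moved less evenly. Of 12 measured 4 were lower in both tissues, 1 was higher and 2 were opposed, with a median effect of -1.78 in BM-MSC and 0.06 in ASC. Il6 read -2.84 and -3.67 in null BM-MSC, against -0.70 and -1.03 in wild-type BM-MSC, and -0.94 and -1.07 in null ASC, against 0.87 and 0.89 in wild-type ASC. All null arrays were below the wild-type arrays of their tissue, and it fell by 2.39 in BM-MSC and by 1.88 in ASC. The neutrophil chemokine Cxcl1 fell by 2.66 ± 0.06 and Csf1, the macrophage growth factor, by 0.95 ± 0.04. Ccl5, a chemokine, rose by 0.67 ± 0.09 in BM-MSC and 4.95 ± 0.09 in ASC, and did not pass in the fit with 1 genotype effect over both tissues (adjusted p = 0.0511). The opposed members were the chemokines Cxcl5, with -7.07 ± 0.28 in BM-MSC and 1.40 ± 0.28 in ASC, and Cxcl12, with -1.41 ± 0.08 in BM-MSC and 1.33 ± 0.08 in ASC.
Some macrophage markers moved beside these genes. Of 10 markers tested 3 were lower in both tissues, 0 higher (1 without wild-type ASC replicate 1) and 1 opposed. Their summed signal was 23.4 to 24.5 in null BM-MSC and 16.0 to 17.2 in null ASC, in units of the 75th percentile. In the wild type it was 29.1 to 29.4 in BM-MSC and 28.5 to 33.1 in ASC. The sum over the 9 mesenchymal stem cell markers was also lower in null cells. It was 111 to 114 against 161 to 174 in BM-MSC, and 111 to 114 against 116 to 122 in ASC. That of the 5 endothelial markers tested was 4.425 to 4.645 in null BM-MSC against 4.192 to 4.423 in the wild type, and was lower in null ASC. The sum over the 5 neural and Schwann markers was higher in null cells. It was 60.9 to 62.6 against 13.5 to 18 in BM-MSC, and 0.694 to 0.708 against 0.553 to 0.657 in ASC. The 1 skeletal muscle marker tested was higher in null BM-MSC (3.33 to 3.34 against 1.01 to 1.14) and lower in null ASC. For the 3 lymphoid and erythroid markers tested the ranges of the genotypes overlapped. Such sums add different probes, so only their change between genotypes is read. Lyz2, the lysozyme of myeloid cells, read -6.11 and -5.34 in null BM-MSC, against -3.76 and -4.03 in wild-type BM-MSC, and -4.69 and -5.22 in null ASC, against -2.09 and -1.84 in wild-type ASC, and was well above background on 0 of 2 null BM-MSC arrays and 1 of 2 null ASC arrays. It was at least 2.45-fold lower in BM-MSC, and Cd68, a lysosomal protein, and Cd14, a co-receptor for endotoxin, fell by 0.81 and by 0.59 in the mean. Cd68 did not pass with the mean of all its probes (adjusted p = 0.0571). Cd74, the invariant chain of MHC class II, was opposed, with -1.14 ± 0.26 in BM-MSC and 1.84 ± 0.26 in ASC, a call lost when any 1 of the 4 BM-MSC arrays was left out. Fcer1g, a signalling chain of Fc receptors, named after its values were seen, rose by 1.71 ± 0.30 in BM-MSC and had 0.02 ± 0.30 in ASC. Tyrobp, which myeloid cells use for signalling, was not well above background on any of the 8 arrays, and was tested through the tumor line alone. In bulk cultures fewer cells of a type and less RNA per cell cannot be told apart, and the part of these markers in the levels of cytokine and complement genes was not tested.

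Genes of the skeletal lineages were mixed in their shared calls, and by the protocol the null cells had been primed towards bone. Of 27 measured osteogenic genes 11 were higher and 5 lower within BM-MSC, against 19.5% and 20.0% of autosomal genes tested. Within ASC 10 were higher and 4 lower, against 20.3% and 21.4%. By the calls of both tissues 5 were higher, 2 lower and 4 opposed, against 9.35%, 9.61% and 5.22% of autosomal genes tested, with a median of 0.35. Of the rises 1, that of Phex, a bone endopeptidase gene named after its values were seen, rests on dim spots in ASC, where no array was well above background. The falls numbered 1 with any 1 of the 4 ASC arrays left out. Bmp2, the bone-inducing ligand, read 1.54 and 1.64 in null BM-MSC, against -5.62 and -4.62 in wild-type BM-MSC, and -4.15 and -4.07 in null ASC, against -6.75 and -7.42 in wild-type ASC. It was well above background on 1 of 2 wild-type BM-MSC arrays and on no wild-type ASC array, rose by 6.72 ± 0.34 in BM-MSC, and was at least 2.71-fold higher in ASC. The periosteal matrix gene Postn rose by 1.29 ± 0.06 in BM-MSC and 2.19 ± 0.06 in ASC. Vdr, the vitamin D receptor, fell by 1.50 ± 0.11 and Msx2, a transcription factor of skull bone, by 1.62 ± 0.06. Msx2 did not pass in the fit with 1 genotype effect over both tissues (adjusted p = 0.0663). Bglap, which encodes osteocalcin, had 3.61 ± 0.12 in BM-MSC and -0.82 ± 0.12 in ASC, with 1 of 2 null ASC arrays well above background.
In the adipogenic list 2 of 11 measured members were higher, 2 lower and 3 opposed, against 9.35%, 9.61% and 5.22% of autosomal genes tested. Of its members 1 was opposed without wild-type BM-MSC replicate 2 and without either array of null BM-MSC. Cebpd, an early factor of fat cell formation, read 3.85 and 3.82 in null BM-MSC, against 6.16 and 6.01 in wild-type BM-MSC, and 3.19 and 3.20 in null ASC, against 4.96 and 4.92 in wild-type ASC. All null arrays lay below all wild-type arrays, and Cebpd fell by 2.25 in BM-MSC and by 1.75 in ASC.
In the chondrogenic list 4 of 12 were higher and 1 lower. The rises numbered 2 without either null BM-MSC array and 1 without null ASC replicate 2, without wild-type ASC replicate 1 or with another background correction, and 2 were lower without null ASC replicate 2. Of the 4 rises, that of Hapln1, a cartilage link protein gene named after its values were seen, rests on dim spots in ASC. The cartilage matrix gene Comp rose by 1.67 ± 0.41 in BM-MSC and was at least 2.23-fold higher in ASC, and Acan, which encodes aggrecan, rose by 0.68 ± 0.11 from near the background but did not pass with another background correction (adjusted p = 0.054). Col2a1, the main cartilage collagen, fell by 1.09 ± 0.10 in BM-MSC, and was not well above background on any ASC array, so the shared fall rests on dim spots in ASC. The smooth muscle list had 3 of 14 higher (1 under array median scaling) and 0 lower in both, with a median of 0.15.
The extracellular matrix was where the tissues parted most often among the lists, with 17 of 36 measured members opposed, 6 higher and 3 lower in both. The collagen VI chains Col6a2 and Col6a3 rose by 0.80 ± 0.04 and 0.98 ± 0.03, and elastin (Eln) by 1.33 ± 0.19. Lox, which crosslinks collagen and elastin, fell by 1.23 ± 0.05. The proteoglycans Lum and Dcn were opposed. Lum read 2.79 and 2.76 in null BM-MSC, against -5.34 and -4.94 in wild-type BM-MSC, and 2.00 and 2.17 in null ASC, against 3.41 and 3.39 in wild-type ASC, and it was well above background on 1 of 2 wild-type BM-MSC arrays. Its difference between tissues was 9.23, and that of Dcn was 4.44.
Of 20 measured Wnt modulators 2 were higher, 1 lower and 8 opposed, against 9.35%, 9.61% and 5.22% of autosomal genes tested. The opposed count was 4 without null BM-MSC replicate 2 and 5 under array median scaling. The rises numbered 1 without either null ASC array or wild-type ASC replicate 2, and 2 were lower without wild-type ASC replicate 1. The Wnt effector Tcf7 was at least 2.59-fold higher in ASC and rose by 1.68 ± 0.35 in BM-MSC, where 1 of 2 wild-type arrays measured it, Axin2, a feedback target, was at least 3.12-fold higher in BM-MSC and not well above background on any ASC array, so that its shared rise rests on dim spots there, and the antagonist Sfrp1 fell by 2.73 in BM-MSC and by 0.53 in ASC.

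Glutathione and peroxide enzymes leaned down, with 9 of 23 measured members lower, 3 higher and 2 opposed, and a median of -0.30. The falls numbered 4 under array median scaling, where 1 member was opposed, and 6 to 9 without 1 array. Gss, the glutathione synthetase, fell by 0.49 ± 0.07 and the peroxidase Gpx3 by 0.61 ± 0.06. Slc7a11, the cystine importer that feeds glutathione synthesis, read -6.00 and -4.87 in null BM-MSC, against -7.42 and -7.84 in wild-type BM-MSC, and -2.40 and -3.05 in null ASC, against -6.55 and -5.69 in wild-type ASC. It was well above background on 1 of 2 null BM-MSC arrays, on both null ASC arrays and on no wild-type array, and was at least 7.11-fold higher in ASC and at least 1.14-fold higher in BM-MSC. Among 9 mesenchymal stem cell markers 0 were higher, 2 lower and 3 opposed in both tissues, and 1 was opposed without null ASC replicate 1 or wild-type ASC replicate 2. The adhesion molecule Vcam1 and the surface marker Thy1 fell by 0.90 ± 0.04 and 1.08 ± 0.06, and Nt5e, which encodes CD73, had 3.52 ± 0.19 in BM-MSC and -0.75 ± 0.19 in ASC. The lists of germline genes (6 measured), endothelial (5), lymphoid and erythroid (3) and skeletal muscle markers (1) had 0 members shared in either direction (1 germline gene fell without null ASC replicate 2), and the neural and Schwann list (5) had 1 higher.

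**Figure D4:**
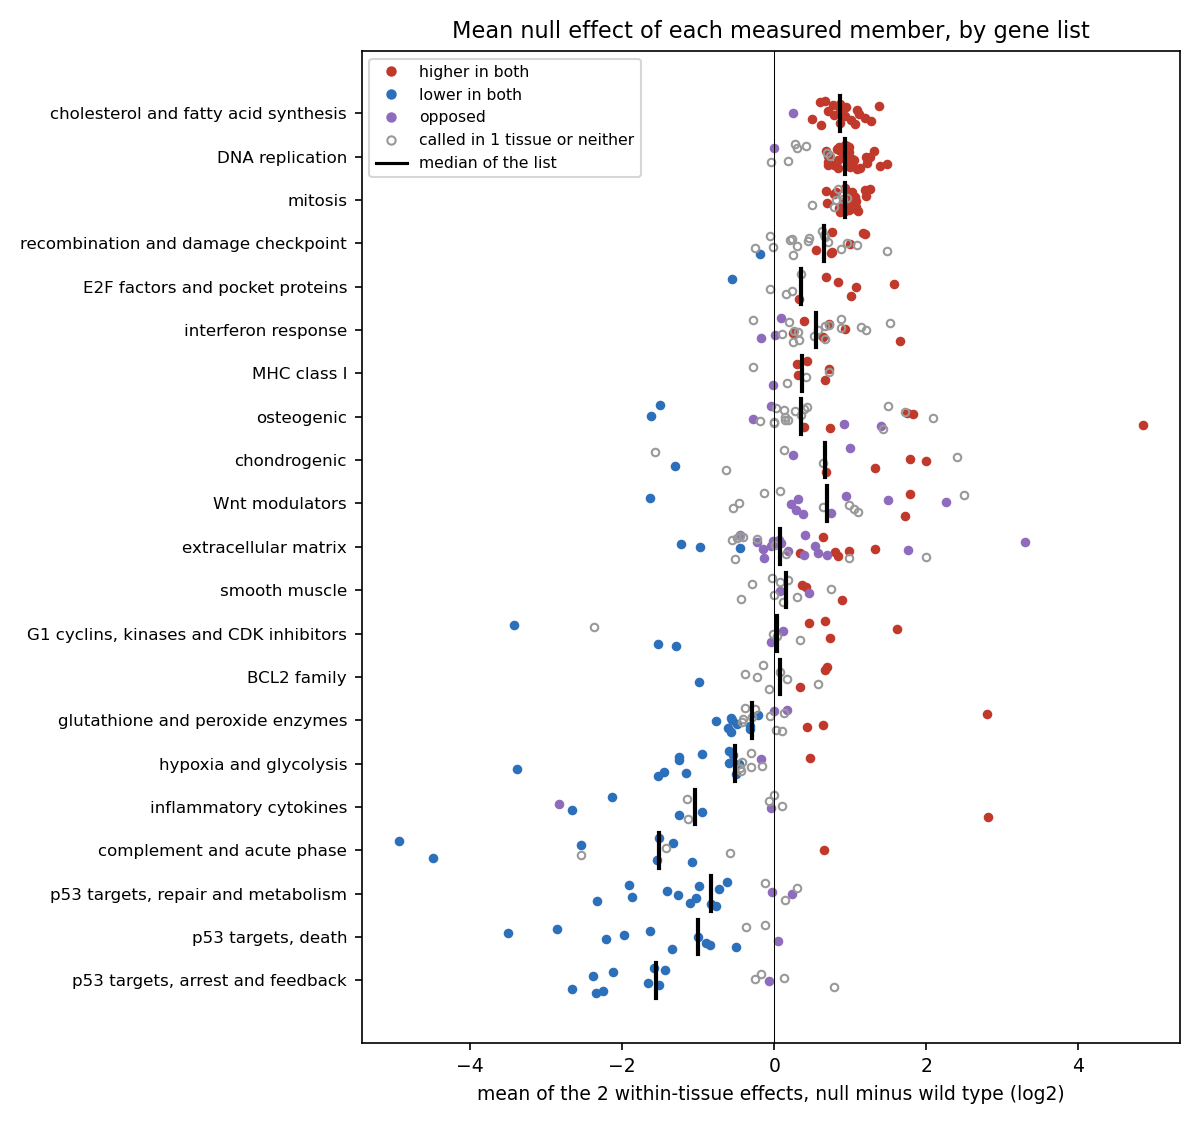
Mean of the 2 within-tissue effects (log2, null minus wild type) of every measured member of 21 gene lists, 1 point a gene, coloured by its calls in the 2 tissues, with a bar at each list's median. Sterol, replication and mitotic genes sit together near 0.9 (medians 0.87, 0.93 and 0.93), p53 targets spread far below 0, and matrix genes straddle it.

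Outside the lists, the 4 genes with the largest opposed effects show what the mean null effect hides. Aldh1a2, a synthase of retinoic acid, read -2.10 and -2.11 in null BM-MSC, against -0.04 and -0.16 in wild-type BM-MSC, and 2.43 and 2.52 in null ASC, against -2.11 and -2.08 in wild-type ASC. It fell by 2.00 ± 0.06 in BM-MSC and rose by 4.57 ± 0.06 in ASC, and its mean stands for no culture. Rprm, which encodes the p53-inducible arrest protein Reprimo, had -5.65 ± 0.22 in BM-MSC (1 of 2 null arrays well above background) and 1.44 ± 0.22 in ASC, and the kininogen gene Kng1 -4.89 ± 0.19 and 1.81 ± 0.19. The formin gene Fhod3 ran the other way, with 4.55 ± 0.17 in BM-MSC and -1.91 ± 0.17 in ASC. The adjusted p of the difference was at most 4.15e-05 for these 4.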

How the data were processed

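Total RNA of each culture was hybridised to a single-colour (Cy3) Agilent array. The deposited scanner files hold background-subtracted spot intensity made with Feature Extraction 10.7.3.1, with probes placed on mm9, per the file headers. The deposited series matrix, which reads as log2 values, tracked its own scanner column at r = 0.989 to 0.993 and served as an alternative; limma is named in the submitters' processing notes, without its role, and how the matrix was normalized is not stated.

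Outlier spots were left out, spots of a probe were averaged as log2 intensity and each array's 75th percentile was subtracted. The brightest probe stood for a gene, and a gene was tested where the scanner flags put that probe well above background throughout some group, which left 22596 genes. RefSeq gave the names of 31422 of 55681 probes, and the rest kept the file's name. All 10 arrays in 5 groups were fitted in 1 model with limma 3.58.1 (R 4.3.3), with 5 residual degrees of freedom. The fifth group, a tumor line, took part in the spread, in the choice of each gene's probe and in the choice of genes tested. Every adjusted p is two-sided and Benjamini-Hochberg adjusted over all genes tested. Only the spread within duplicates enters these p-values, and precision is set by how few arrays there were (median SE 0.0669 for the mean effect, 0.0946 within a tissue). The fit was checked on simulated data. Where a probe was dim on both arrays of a group a change is a bound, "at least N-fold", from the brighter group's mean over the lowest signal well above background. Duplicates numbered alike were not taken as pairs.

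The members, lists and naming rule were chosen with earlier results of these data known. Named genes were Rb1 and Trp53, the 12 highest and 12 lowest shared autosomal genes by the smaller of the 2 effects (measured in all 4 groups), up to 6 genes per direction measured in 1 genotype alone, up to 4 shared members, all members against the majority and up to 2 opposed members per list, and the 4 opposed genes with the largest difference outside the lists. Some members that these rules choose are counted in their lists but not reported here by name. Drawing was done with Python 3.11.15, pandas 2.3.3 and matplotlib 3.10.9, and version 1.17.8 of data.table read the files.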

Additional observations from a re-analysis of the deposited data

Results flagged for a closer look

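The null effect in BM-MSC minus that in ASC, tested as a difference in the same limma fit, passed the threshold for 92 of the 143 genes named above. For 6 of them a group was well above background on no array, so no size or order of tissues is read. It is given on the log2 scale for the other 86, at adjusted p-values of up to 0.0497. No cause of these differences was tested.

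Effects ran in opposite directions for 18 genes. The effect in BM-MSC was the higher for Plk2 1.27, Fdxr 1.14, Bglap 4.43, Lum 9.23, Dcn 4.44, Nt5e 4.27 and Fhod3 6.46. It was the lower for Rrm1 -0.62, Dram1 -1.14, Gls2 -0.68, Pfkfb3 -1.20, Insig1 -0.86, Aldh1a2 -6.57, Rprm -7.08, Kng1 -6.70, Cd74 -2.98, Cxcl5 -8.47 and Cxcl12 -2.75. Of genes called in 1 tissue, the effect in BM-MSC was the higher for Gadd45a 1.40, Ppm1d 0.33, Sesn1 0.40 and Fcer1g 1.69, and the lower for Ddb2 -0.65.

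Among genes higher in null cells of both tissues, the rise was larger in BM-MSC for Ngfr 3.11, Cdkn1c 1.99, Fasn 0.67 and Col6a3 0.48. The rise was larger in ASC, and the difference therefore negative, for Fndc1 -0.82, Lgi2 -0.53, Sncaip -1.05, Enpp2 -1.81, Tspan13 -1.05, E2f8 -0.95, E2f7 -0.75, E2f2 -0.68, Cdt1 -0.42, Mcm6 -0.69, Mcm5 -0.61, Prim1 -0.82, Top2a -0.72, Mybl2 -0.83, Ttk -1.13 and Ccna2 -0.84. The same held for Rad51ap1 -0.96, Rad54l -1.07, Fanca -0.78, Bok -0.25, Psmb9 -0.75, Ccl5 -4.27, Scd1 -0.80, Fdps -0.27, Idi1 -0.50 and Postn -0.91.

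Among genes lower in null cells of both tissues, the fall was larger in BM-MSC, again with a negative difference, for Tmem74b -0.45, Notch3 -0.55, Sytl1 -1.20, Serpina3i -0.74, Fas -0.36, Cdkn2b -5.78, Bnip3 -0.86, Pdk1 -0.61, Cxcl1 -2.41, Csf1 -0.37, C3 -4.33, Hp -1.37 and Vdr -1.46. The same held for Msx2 -2.68, Cebpd -0.50, Lox -1.03, Sfrp1 -2.20, Vcam1 -0.51 and Thy1 -0.97. The fall was larger in ASC, with a positive difference, for Rb1 1.93, Trp53 4.10, Pmaip1 0.40, Gsta3 1.79, Celf5 1.70, Psrc1 0.71, Btg2 0.71, Ccng1 1.32, Cdkn1a 2.62, Perp 3.36, Dcxr 0.50, Polk 0.69, Ccnd1 1.83 and Bcl2l1 0.59.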

How the results depend on the processing

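Of 2666 repeats of the 143 named results under other settings, 2645 kept direction and side of the threshold, none reversed, 14 missed the threshold and 7, all of Ppm1d, passed it anew, and 129 results kept both under every setting run. Each of these repeats covered the mean null effect, or for an opposed gene the difference of the 2 effects. The 2 within-tissue calls that make a gene shared or opposed were not counted there. Some of those calls were lost, as given above for Rbl2, Insig1 and Cd74. Scaling by the array median gave 5869 genes in BM-MSC, 4380 for the difference, 1007 shared rises, 1304 shared falls and 558 opposed genes, and testing all genes without a filter gave 724 opposed. A fit with 1 genotype effect and tissue as an additive block, whose residual holds the difference between tissues, called 6076 genes (2942 higher, 3134 lower). Asking for at least 2-fold as well left 1454 genes in the mean effect (658 higher, 796 lower), 1848 in BM-MSC, 2057 in ASC, 2232 for the difference, 171 shared rises, 277 shared falls and 105 opposed. Leaving out each array in turn gave 9514 to 10317 genes in the mean effect (4535 to 5091 higher, 4896 to 5226 lower), 6448 to 8969 in BM-MSC, 7444 to 9012 in ASC, 5395 to 6514 for the difference, 1443 to 1860 shared rises, 1614 to 1848 shared falls and 761 to 1016 opposed, with the lone array of a group assumed to vary like the others. The causes of these changes were not tested. No scaling moved the median of all genes by over 0.1 (log2).

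The replicate numbers do not pair the cultures, since same-numbered arrays of null and wild-type cells deviated together at r = 0.0868 in BM-MSC and 0.116 in ASC. With the replicate block the mean effect was called for 10564 genes (5115 higher, 5449 lower), with 1884 shared rises and 1945 shared falls.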

Other observations

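Genes of amino acid synthesis, amino acid import and tRNA charging that the stress factor ATF4 is known to control were collected after their values had been seen, so they have no test as a group. Of 29 such genes, all measured, 21 were higher in null cells of both tissues, 1 was lower and 1 was opposed, with a median mean null effect of 0.81, against 9.35% of autosomal genes higher in both. Aldh1l2, of mitochondrial folate metabolism, rose by 2.22 ± 0.05, its neighbour in that pathway Mthfd2 by 1.76 ± 0.04, the pseudokinase gene Trib3 by 1.73 ± 0.05, the amino acid transporter Slc7a5 by 1.75 ± 0.06 and Psat1, of serine synthesis, by 1.47 ± 0.03. Sesn2, also a p53 target, fell by 0.98 ± 0.06. Ddit3, which encodes CHOP, was opposed, with 0.52 ± 0.05 in BM-MSC and -0.32 ± 0.05 in ASC.

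The tumor line, grown from a tumor of primed null BM-MSC, entered no comparison. Its levels on the same scale were -1.98 and -1.97 for Rb1, -7.56 and -7.59 for Trp53, 2.13 and 2.21 for Cdkn1a, 2.19 and 2.15 for Perp, 4.93 and 4.90 for Prim1, 1.49 and 1.48 for Dhcr7, -2.86 and -3.18 for Fndc1 and 0.12 and 0.14 for C3.

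Shared rises were 6.42% (chromosome 14) to 12.6% (chromosome 19) of the genes tested on an autosome, and shared falls 7.10% (chromosome 18) to 11.6% (chromosome 7), with no test across chromosomes. On X and Y, left out of the members, 162 genes were called the same way in both tissues.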
